A study of Mus musculus with 6 samples.

Results

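The 10 genes described here, Lta, Ltb, Tnfsf11, Kit, Nrp1, Cd4, Itgb3, Cntn1, Cd83 and Slc7a8, encode lymphotoxins and surface molecules associated with lymphoid tissue inducer-like (LTi-like) group 3 innate lymphoid cells (ILC3s). They were taken by symbol from a table of 25075 genes, and all 10 were found and had enough counts to be tested. RNA came from cells sorted from mouse small intestine as lineage-negative, CD90.2-positive and KLRG1-negative, 2000 cells per sample, and was sequenced by Smart-seq2, which makes full-length cDNA from few cells. The labels give 2 groups of 3 samples each, on a b6 background. The libraries labelled Batf-deficient came from Batffl/flPLZF-Cre+ mice and the libraries labelled control from Batffl/flPLZF-Cre- mice, so both groups carried the floxed Batf alleles. The labels give no age, sex, litter or batch. The Cre is driven by the gene for PLZF, a transcription factor of a common precursor of helper-like innate lymphoid cells and of several innate-like T cells. In mice, lymphoid tissue inducer cells arise largely from cells that have not expressed PLZF. The gate as described did not select on RORγt or CCR6, so LTi-like cells were not separated from other ILC3s. The lineage antibodies are not listed in the sources used here, so whether CD4 was among them is not known.

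Lymphoid tissue inducer cells build lymph nodes and Peyer's patches before birth, and LTi-like ILC3s maintain isolated lymphoid follicles and cryptopatches in the adult gut. They do so by displaying the membrane lymphotoxin heterotrimer, made of the Lta and Ltb products, to stromal cells that carry the lymphotoxin β receptor. That receptor signals through the alternative NF-κB pathway and induces chemokines and adhesion molecules. RANK ligand, the Tnfsf11 product, acts beside it on stromal and epithelial cells. Among gut cells, Cd4, Lta and Ltb were classed as made mainly by lymphocytes, a class that was not tested here and does not exclude other sources. The other 7 genes are also made elsewhere: Nrp1 by endothelium and neurons, Cntn1 by neurons and glia, Tnfsf11 by stroma, Kit by mast cells and interstitial cells of Cajal, Itgb3 by platelets and endothelium, Cd83 by dendritic cells and B cells, and Slc7a8 by epithelium.

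Libraries held 8228513 to 13615895 counts in the group labelled Batf-deficient and 9080012 to 17334207 in the group labelled control, so that 3 counts stood for 0.155 to 0.425 CPM (counts per 1000000 of the scaled library). Batf itself went against the labels, with a mean of 40.2 ± 1.77 CPM in libraries labelled Batf-deficient and 16.4 ± 2.13 CPM in those labelled control (SD, n = 3 each; edgeR quasi-likelihood test, log2 fold change 1.29, adjusted p = 1.70e-05), although against the lymphocyte panel described below it was -1.20 (edgeR adjusted p = 2.42e-05). Its total count does not show which exons were read, and every direction below is therefore between labels. The 8 ILC3 markers summed to 9340 to 10703 CPM in libraries labelled Batf-deficient and to 1231 to 1411 CPM in those labelled control, and none was at 0. Pancreatic acinar markers summed to 4.54 to 5.11 CPM against 48775 to 52796 CPM, and intestinal epithelial markers to 354 to 399 CPM against 12645 to 13945 CPM, in the same order of groups. The genes tested numbered 15261. Batf-deficient replicates 1 and 2 were the closest pair of libraries (mean chi-square 2.36 per gene, other pairs 14.8 to 24.2), so whether they are separate samples is uncertain, and n = 3 and the p-values take them as such.

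**Figure D1:**
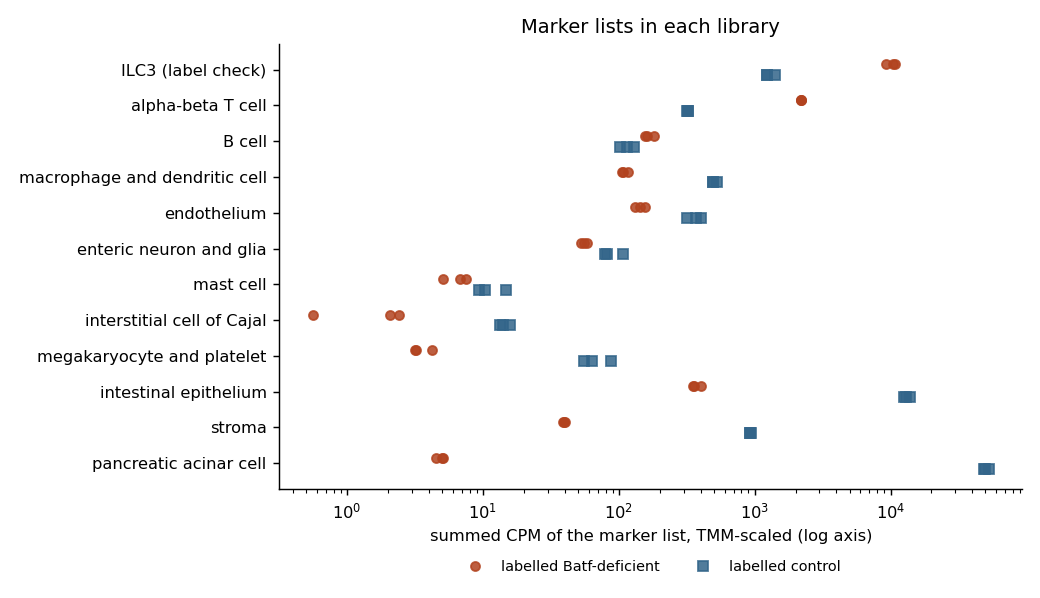
Summed CPM of 12 marker lists in each library (log axis), with circles for the 3 libraries labelled Batf-deficient and squares for the 3 labelled control. The ILC3 and T cell lists sit higher in libraries labelled Batf-deficient, and the stromal, epithelial, platelet and acinar lists sit higher in those labelled control.

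Because the libraries differed so widely in the share of lymphocyte RNA, each gene is given on 2 scales. The first is CPM with TMM factors, which multiply the library total by a factor that balances the bulk of all genes. The second sets it against a panel of 21 genes of innate lymphoid and T cells (Bcl11b, Il7r, Lck, Lat and others), in counts per 1000 counts of the panel. The panel took 0.553% to 0.563% of counts in libraries labelled Batf-deficient and 0.125% to 0.136% in those labelled control, and it was chosen with earlier results of these data known. The panel moved the median log2 fold change of all genes by -2.48 relative to TMM, since that median was -2.47 against the panel and 0.02 with TMM factors. In bulk RNA, fewer cells of a type and less RNA per cell cannot be told apart on either scale.

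With TMM factors, 7 of the 10 genes were higher in libraries labelled Batf-deficient (Kit, Ltb, Itgb3, Lta, Cntn1, Tnfsf11 and Nrp1), Cd83 and Slc7a8 were lower, and Cd4 did not pass the test (edgeR, adjusted p threshold 0.05 over all genes), where 30.2% of all genes were higher and 34.1% lower. Against the panel, Kit was the 1 gene higher, 8 were lower and Ltb did not pass, where 1.82% of all genes were higher and 87.5% lower on that scale. The median of the 10 genes was 0.60 with TMM factors and -1.89 against the panel. The CPM of the 3 libraries of each group did not overlap for 9 of the 10 genes, Cd4 being the exception, against 71.2% of all genes. Per 1000 panel counts the groups did not overlap for 9 of the 10, with Ltb the exception, against 88.9% of all genes. Of the lymphocyte genes, Lta and Ltb were higher with TMM factors and Cd4 did not pass. Of the 7 genes also made by other gut cells, 5 were higher and 2 lower.

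**Figure D2:**
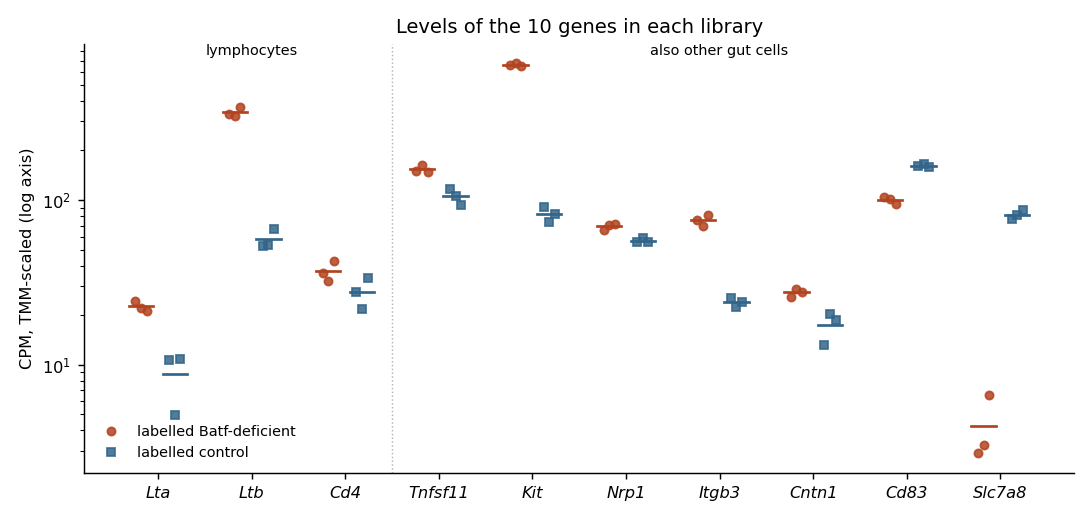
TMM-scaled CPM (log axis) of the 10 genes in each library, with bars at the group means, circles for the 3 libraries labelled Batf-deficient and squares for the 3 labelled control. Kit and Ltb stand farthest above their control values, Slc7a8 farthest below, and the groups overlap for Cd4.

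The lymphotoxin genes lie near each other on chromosome 17 (mm10; gene models from GENCODE M21), Ltb on the plus strand from 35194439 to 35196320 and Lta on the minus strand from 35203165 to 35205351. Ltb-201 has 3 exons and Lta-201 has 4. Each overlaps a microRNA gene on its own strand (Mir6973a in Ltb, Mir6974 in Lta), whose reads would be hard to tell from those of the host. Their upstream sequences, from RefSeq promoter windows on GRCm38.p6 and limited to bases before any annotated exon, are shown because these ligands carry the pathway's signal and their changes differed in size. They are chr17:35205352-35205601 (minus strand) for Lta and chr17:35194257-35194438 (plus strand) for Ltb, and capitals mark a match to the κB-type motif GGGANTTTC on either strand.
Lta: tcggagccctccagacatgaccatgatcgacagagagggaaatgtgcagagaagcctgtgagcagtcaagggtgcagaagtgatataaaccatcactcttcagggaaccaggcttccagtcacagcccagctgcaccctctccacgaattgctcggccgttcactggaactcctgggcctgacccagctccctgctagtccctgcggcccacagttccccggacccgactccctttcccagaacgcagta
Ltb: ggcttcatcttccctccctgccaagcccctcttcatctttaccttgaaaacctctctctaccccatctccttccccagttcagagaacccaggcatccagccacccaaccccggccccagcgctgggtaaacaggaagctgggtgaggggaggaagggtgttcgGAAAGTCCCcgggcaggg
The Ltb match begins 86 bases before the RefSeq start. Among 32536 different windows of 250 bases before a start, 0.944% held this motif on either strand, and 6.73% held TGANTCA, the AP-1 motif that BATF binds with JUN proteins. The searched motifs do not overlap each other in these windows. Windows were found for 7 of the 10 genes (10 windows, for Lta, Ltb, Tnfsf11, Kit, Nrp1, Cntn1 and Slc7a8), and apart from the Ltb match none held either motif. A match is a stretch of letters and not a measured site.

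Ltb, which anchors the heterotrimer in the membrane, was at 333, 322 and 368 CPM in libraries labelled Batf-deficient, against 52.8, 53.6 and 67.0 CPM in those labelled control. Every library labelled Batf-deficient was far above the highest control, and the ratio was 5.89-fold (log2 fold change 2.56, SE 0.12, edgeR adjusted p = 3.66e-09). Per 1000 panel counts, Ltb was at 51.2, 49.95 and 59.7 in libraries labelled Batf-deficient, against 45.5, 48.8 and 58.6 in those labelled control. On that scale the groups overlapped, with 0.07 as the log2 fold change (SE 0.13, edgeR adjusted p = 0.602). Leaving out Batf-deficient replicate 3 gave -0.01 (adjusted p = 0.926) and leaving out control replicate 1 gave -0.0022 (adjusted p = 0.988), again in edgeR.

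Lta, which encodes the lymphotoxin α chain of both the secreted homotrimer and the membrane form, was at 24.3, 22.25 and 21.3 CPM in libraries labelled Batf-deficient, against 10.7, 4.97 and 10.8 CPM in those labelled control. Control replicate 2 was the lowest library, and the groups did not overlap. Lta was 2.57-fold higher with TMM factors (log2 fold change 1.36, SE 0.28, edgeR adjusted p = 0.00112) and lower against the panel, at 3.74, 3.45 and 3.46 per 1000 panel counts in libraries labelled Batf-deficient and 9.23, 4.52 and 9.465 in those labelled control (log2 fold change -1.12, SE 0.29, edgeR adjusted p = 0.00259). Within a library, the ratio of the chains needs no scaling. It was 13.7, 14.5 and 17.3 Ltb counts per Lta count in libraries labelled Batf-deficient, against 4.93, 10.8 and 6.19 in those labelled control, with no overlap between groups. B cells also make both lymphotoxins. The 8 B cell markers summed to 156 to 182 CPM in libraries labelled Batf-deficient and 102 to 130 CPM in those labelled control. Of the mean of the first group, 136 CPM was Blk, a kinase that IL-17-producing lymphocytes also make. Cd79a was at 1.53 CPM in libraries labelled Batf-deficient and 34.7 CPM in those labelled control. Its partner Cd79b was at 25.0 and 19.7 CPM in the same order and did not pass. Of the 8 markers, 6 were lower with TMM factors, 1 was higher and 1 did not pass. The part of B cells in these values was not tested.

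Tnfsf11 (chromosome 14, 78277445 to 78308043) encodes RANK ligand, which acts on the precursors of lymphoid stroma and of epithelial M cells. It was at 150, 163 and 149 CPM in libraries labelled Batf-deficient, against 117, 106 and 93.3 CPM in those labelled control. The groups did not overlap, and the ratio was 1.46-fold (log2 fold change 0.55, SE 0.11, edgeR adjusted p = 0.00100). Scaled by library totals instead, Tnfsf11 lost its call, at 0.16 (edgeR adjusted p = 0.261). Against the panel the direction turned, with 23.1, 25.2 and 24.2 per 1000 panel counts in libraries labelled Batf-deficient and 101, 96.8 and 81.6 in those labelled control. This was 3.85-fold lower (log2 fold change -1.94, SE 0.12, edgeR adjusted p = 1.93e-09). Stromal markers, 8 of 8 detected, summed to 39.0 to 40.5 CPM in libraries labelled Batf-deficient and 921 to 944 CPM in those labelled control, and their part in the Tnfsf11 level was not tested.

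Kit (chromosome 5, 75574916 to 75656722), the receptor tyrosine kinase for stem cell factor and a surface marker of many ILC3s, showed the largest increase of the 10 genes. It was at 656, 674 and 649 CPM in libraries labelled Batf-deficient, against 90.5, 73.8 and 82.0 CPM in those labelled control. The ratio was 8.04-fold (log2 fold change 3.01, SE 0.10, edgeR adjusted p = 2.46e-10), and Kit kept its direction against the panel. There it was at 101, 104 and 106 per 1000 panel counts in libraries labelled Batf-deficient and 77.9, 67.2 and 71.7 in those labelled control (log2 fold change 0.52, SE 0.10, edgeR adjusted p = 0.000307). Mast cells and interstitial cells of Cajal are other sources of Kit in the gut. Of 8 mast cell markers 6 were in the table, and they summed to 5.10 to 7.46 CPM in libraries labelled Batf-deficient and 9.40 to 14.8 CPM in those labelled control, with the protease gene Mcpt1 at 0 in every library of the first group. Tpsb2, another mast cell protease gene, was also at 0 there but had only 0, 0 and 5 counts in the second. Hdc, which made up most of the sum in the first group, was at 5.38 CPM there and 3.73 CPM in the second. Of the 3 mast cell markers tested, 1 was lower with TMM factors and 2 did not pass, Hdc among them. The 3 markers of interstitial cells of Cajal summed to 0.562 to 2.41 CPM in libraries labelled Batf-deficient and 13.4 to 15.8 CPM in those labelled control, with Etv1 at 0 in the first group. Ano1, the most abundant of the 3, was at 0.027 CPM in the first group and 10.9 CPM in the second. Of the 3 markers, Ano1 and Etv1 were lower with TMM factors. Most of the sum in the first group was Kcnmb1, which was at 1.65 CPM there and 1.17 CPM in the second and did not pass. The part of these cells in the Kit level was not tested.

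Nrp1 (chromosome 8, 128358604 to 128503363) encodes neuropilin-1, a co-receptor for semaphorins and VEGF that marks LTi-like ILC3s. It was at 66.1, 71.0 and 71.4 CPM in libraries labelled Batf-deficient, against 55.6, 58.5 and 55.9 CPM in those labelled control. The groups did not overlap, but the difference was small (1.23-fold, log2 fold change 0.29, SE 0.11, edgeR adjusted p = 0.0317). Library totals gave -0.08 (edgeR adjusted p = 0.578). The edgeR call was also lost without any 1 of the libraries labelled Batf-deficient, at 0.28, 0.23 and 0.19 (adjusted p = 0.136, 0.203 and 0.203 without replicates 1, 2 and 3), and without control replicate 1, at 0.27 (adjusted p = 0.0625). Per 1000 panel counts Nrp1 was at 10.2, 11.0 and 11.6 in libraries labelled Batf-deficient and 47.9, 53.2 and 48.9 in those labelled control, which is -2.19 on the log2 scale (SE 0.13, edgeR adjusted p = 1.22e-09). Endothelium also makes Nrp1. Its 10 markers, none at 0, summed to 133 to 157 CPM in libraries labelled Batf-deficient and 317 to 402 CPM in those labelled control. A mean of 81.2 CPM of the first group was Pecam1, which lymphocytes also make. The VEGF receptor gene Kdr was at 2.33 CPM in libraries labelled Batf-deficient and 33.8 CPM in those labelled control, so that there were 25.2, 26.4 and 42.3 Nrp1 counts per Kdr count in the first group and 1.51, 1.57 and 2.04 in the second. The part of endothelial RNA in the Nrp1 level was not tested.

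Cd4 (chromosome 6, 124864692 to 124888221), the co-receptor for MHC class II on helper T cells, is also carried by a subset of mouse LTi cells. It was at 35.9, 32.5 and 42.5 CPM in libraries labelled Batf-deficient, against 27.8, 21.7 and 33.9 CPM in those labelled control. The groups overlapped and Cd4 did not pass the test (log2 fold change 0.41, SE 0.18, edgeR adjusted p = 0.0676), although it passed without control replicate 3 (0.59, edgeR adjusted p = 0.0141). Against the panel Cd4 was lower, with 5.52, 5.03 and 6.90 per 1000 panel counts in libraries labelled Batf-deficient and 23.97, 19.8 and 29.6 in those labelled control (log2 fold change -2.07, SE 0.19, edgeR adjusted p = 1.72e-07). Markers of αβ T cells, 10 of 10 detected, summed to 2176 to 2184 CPM in libraries labelled Batf-deficient and 316 to 323 CPM in those labelled control. Trbc2 was at 732 and 99.1 CPM, Trbc1 at 502 and 75.1 CPM and Trac at 54.9 and 16.1 CPM, in the same order of groups. Of these 10 markers, 9 were higher with TMM factors and Cd8a was lower, and against the panel 4 were higher and 3 lower. Cd4 did not follow them. There were 0.129, 0.117 and 0.146 Cd4 counts per count of the CD3 subunit gene Cd3e in libraries labelled Batf-deficient, against 0.671, 0.637 and 0.933 in those labelled control. Macrophage and dendritic cell markers summed to 105 to 117 CPM in libraries labelled Batf-deficient and 492 to 525 CPM in those labelled control. Of the 10 of these tested, 7 were lower with TMM factors, 2 were higher and 1 did not pass. How much Cd4 RNA came from T cells, from macrophages and dendritic cells or from other cells was not tested. Nor was it tested whether the T cell marker sum or Cd3e follows the number of T cells.

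Itgb3 (chromosome 11, 104608000 to 104670476), the integrin β3 chain that pairs with αv or with the platelet chain αIIb, was at 76.0, 69.6 and 80.8 CPM in libraries labelled Batf-deficient, against 25.3, 22.6 and 24.03 CPM in those labelled control. It was 3.16-fold higher with TMM factors (log2 fold change 1.66, SE 0.13, edgeR adjusted p = 2.51e-07) and lower against the panel (-0.83, SE 0.15, edgeR adjusted p = 0.000116). Per 1000 panel counts it was at 11.7, 10.8 and 13.1 in libraries labelled Batf-deficient and 21.8, 20.5 and 21.0 in those labelled control. The partner chain gene Itgav was higher beside it with TMM factors, at 146 ± 12.6 and 53.0 ± 4.71 CPM in libraries labelled Batf-deficient and control (log2 fold change 1.45, and -1.04 against the panel). The platelet partner Itga2b was at 1.76 CPM in libraries labelled Batf-deficient and 1.03 CPM in those labelled control and did not pass. Platelet markers, 6 of 6 found, summed to 3.18 to 4.25 CPM in libraries labelled Batf-deficient and 55.7 to 88.1 CPM in those labelled control. Most of the control sum was Gp1bb, at 1.49 CPM in libraries labelled Batf-deficient and 58.5 CPM in those labelled control. Pf4 was at 0.120 and 8.92 CPM in the same order. Ppbp, at 0.101 and 0.251 CPM, and Gp1ba, at 0.074 and 0.163 CPM, had too few counts to be tested. Gp9 had 0 counts in the first group and 0, 6 and 0 counts in the second. The part of platelets in the Itgb3 level was not tested.

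Cntn1 (chromosome 15, 92051165 to 92341967), a GPI-anchored adhesion molecule best known from neurons, was at 26.0, 29.1 and 27.9 CPM in libraries labelled Batf-deficient, against 13.3, 20.2 and 18.8 CPM in those labelled control. The groups did not overlap, with control replicate 1 the lowest. That is 1.58-fold (log2 fold change 0.66, SE 0.19, edgeR adjusted p = 0.00911). Library totals gave 0.29 (edgeR adjusted p = 0.211), and the call was lost without Batf-deficient replicate 2 (0.58, adjusted p = 0.0580) or replicate 3 (0.57, adjusted p = 0.0529). Against the panel Cntn1 was lower, with 3.99, 4.503 and 4.53 per 1000 panel counts in libraries labelled Batf-deficient and 11.4, 18.4 and 16.4 in those labelled control (log2 fold change -1.83, SE 0.21, edgeR adjusted p = 1.64e-06). Markers of enteric neurons and glia, 10 in number, summed to 52.7 to 58.7 CPM in libraries labelled Batf-deficient and 79.5 to 107 CPM in those labelled control. A mean of 52.8 CPM in the first group and 50.2 CPM in the second was Ret, a receptor that ILC3s also carry. Elavl4, which marks neurons, was at 0 in every library labelled Batf-deficient and had 14, 37 and 7 counts in those labelled control. The part of neurons and glia in the Cntn1 level was not tested.

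Cd83 (chromosome 13, 43784775 to 43803132) is an immunoglobulin-family membrane protein of activated dendritic cells and lymphocytes that keeps MHC class II on the cell surface. It was at 104, 102 and 94.3 CPM in libraries labelled Batf-deficient, against 161, 165 and 159 CPM in those labelled control. The groups did not overlap, and Cd83 was lower on both scales. The log2 fold change was -0.69 with TMM factors (SE 0.10, edgeR adjusted p = 5.42e-05) and -3.19 against the panel (SE 0.11, edgeR adjusted p = 5.28e-12). Per 1000 panel counts it was at 16.0, 15.8 and 15.3 in libraries labelled Batf-deficient and 139, 150 and 139 in those labelled control. Macrophage and dendritic cell markers, 12 of 12 found, summed to 105 to 117 CPM in libraries labelled Batf-deficient and 492 to 525 CPM in those labelled control. The lysozyme gene Lyz2 was at 25.7 and 205 CPM and the complement gene C1qb at 3.26 and 89.4 CPM in the groups labelled Batf-deficient and control. Clec9a, a marker of cross-presenting dendritic cells, was at 0 in the first and had 0, 16 and 66 counts in the second. Of the 10 markers tested, 7 were lower with TMM factors, 2 were higher (Zbtb46 and Xcr1) and 1 did not pass. The MHC class II gene H2-Ab1 was at 69.5 ± 5.69 and 470 ± 29.4 CPM in the same order (log2 fold change -2.76, edgeR adjusted p = 5.69e-10). The part of these cells in the Cd83 level was not tested.

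Slc7a8 (chromosome 14, 54722209 to 54781946) encodes LAT2, an exchanger of neutral amino acids in the basolateral membrane of epithelia. It was at 2.90, 3.26 and 6.58 CPM in libraries labelled Batf-deficient (21, 23 and 82 counts), against 77.1, 80.6 and 86.8 CPM in those labelled control. Batf-deficient replicate 3 was above the other libraries of its group and far below every control. Slc7a8 was 18.1-fold lower with TMM factors (log2 fold change -4.18, SE 0.25, edgeR adjusted p = 2.41e-08), and -4.80 without Batf-deficient replicate 3 (edgeR adjusted p = 3.04e-08). Against the panel it was -6.65 (SE 0.26, edgeR adjusted p = 4.64e-11). All 12 epithelial markers were lower in libraries labelled Batf-deficient, with a median log2 fold change of -4.90, and the keratin gene Krt8 was at 142 and 3923 CPM in the groups labelled Batf-deficient and control. Slc3a2, the heavy chain with which LAT2 and related transporters pair, was higher with TMM factors at 936 ± 26.4 and 324 ± 29.9 CPM in the same order (log2 fold change 1.53) and lower against the panel (-0.96). The part of epithelial RNA in the Slc7a8 level was not tested.

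**Figure D3:**
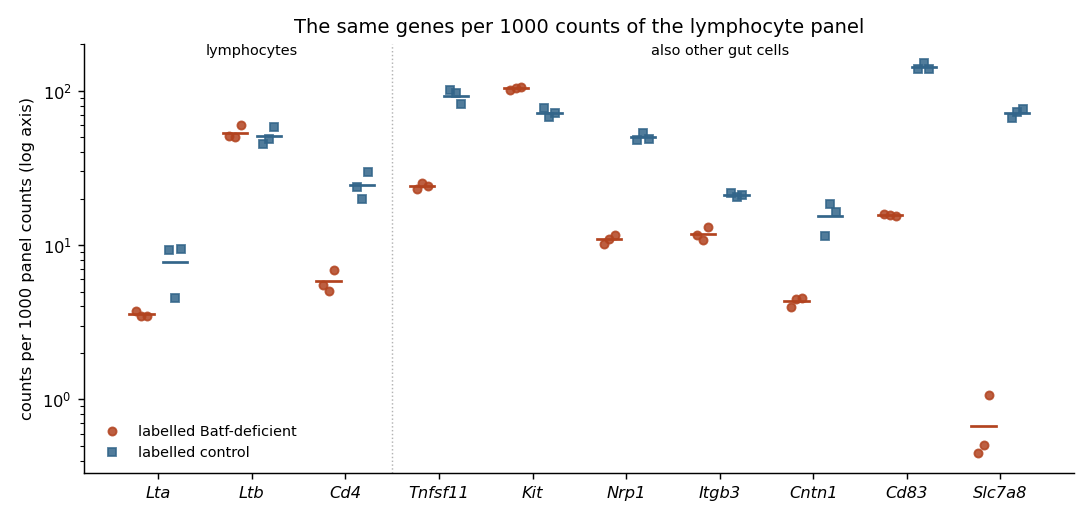
Counts of the 10 genes per 1000 counts of the 21-gene lymphocyte panel in each library (log axis), with bars at the group means, circles for the 3 libraries labelled Batf-deficient and squares for the 3 labelled control. Ltb overlaps between groups, Kit is higher in libraries labelled Batf-deficient, and the other 8 genes are lower there.

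**Figure D4:**
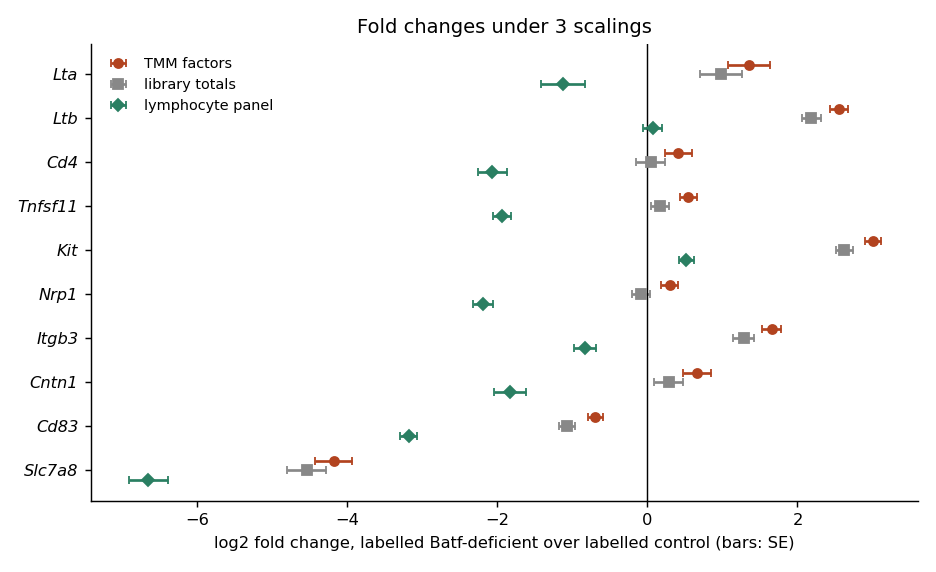
Log2 fold changes of the 10 genes, labelled Batf-deficient over labelled control, with TMM factors (circles), library totals (squares) and the lymphocyte panel (diamonds), and bars of 1 SE. Kit and, by a small margin, Ltb lie right of 0 under all 3 scalings, Cd83 and Slc7a8 lie left of it, and the side of the other 6 genes depends on the scaling.

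Set against Kit, the other members formed an order that needs no scaling. Ltb was nearest, with 0.508, 0.478 and 0.566 counts per Kit count in libraries labelled Batf-deficient and 0.584, 0.727 and 0.817 in those labelled control. Tnfsf11 was at 0.229, 0.242 and 0.229 counts per Kit count in libraries labelled Batf-deficient and 1.29, 1.44 and 1.14 in those labelled control. Cd83 was at 0.159, 0.151 and 0.145 against 1.78, 2.24 and 1.93, in the same order of groups. For each of the 9 genes this ratio was lower in every library labelled Batf-deficient than in every library labelled control. Kit had the largest increase of all members (log2 fold change 3.01 with TMM factors), so the lower ratios follow from this choice of denominator. The median over all genes tested was 0.02 with TMM factors, so most genes would also be lower against Kit. The share of all genes whose ratio to Kit did not overlap between groups was not computed. With 3 libraries against 3, a two-sided exact permutation test of a single ratio cannot go below p = 0.1, and none was run.

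Levels were compared between genes per kilobase of exon, over the union of annotated exons. In the libraries labelled Batf-deficient Ltb was highest at 225 ± 15.6 CPM per kb, followed by Kit at 74.0 ± 1.42 and Tnfsf11 at 68.8 ± 3.44, whose ranges lay next to each other without overlap. Cd83 (38.9), Lta (16.4), Itgb3 (12.8), Cd4 (9.17), Nrp1 (7.10), Cntn1 (2.93) and Slc7a8 (0.849 CPM per kb) followed, each apart from its neighbours. In the libraries labelled control Cd83 came first at 62.9 CPM per kb. Tnfsf11 (47.2) and Ltb (38.1) followed with overlapping ranges, then Slc7a8 (16.3). Kit (9.21), Cd4 (6.90), Lta (6.39) and Nrp1 (5.79 CPM per kb) each overlapped the next in the control libraries, and Itgb3 (4.06) lay within the range of Lta. Cntn1 was last at 1.85 CPM per kb. RNA of the membrane chain Ltb thus exceeded that of its partner Lta per kb in both groups.

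The wider pathway was read from 7 lists of 51 genes in all, given as counts and medians beside the median of 0.02 (TMM) and -2.47 (panel) over all genes. Of all genes tested, 30.2% were higher and 34.1% lower with TMM factors, and 1.82% were higher and 87.5% lower against the panel, so that a list lower as a whole against the panel is near that background. Of the 4 lymphotoxin and TNF ligand genes, all were higher with TMM factors (median 2.92), and against the panel Tnfsf14 and Tnf were higher and Lta lower (median 0.44). Tnf, which lies in the same locus, was at 138 ± 6.34 and 9.38 ± 0.463 CPM in libraries labelled Batf-deficient and control (log2 fold change 3.88, edgeR adjusted p = 1.17e-10, and 1.39 against the panel). Tnfsf14, which encodes LIGHT, another ligand of the lymphotoxin β receptor, was at 41.3 ± 5.77 and 4.19 ± 1.46 CPM in the same order (log2 fold change 3.28, and 0.81 against the panel).

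Of the 4 receptor genes, Tnfrsf1b and Tnfrsf14 were higher with TMM factors, Ltbr was lower and Tnfrsf1a did not pass. Against the panel Ltbr and Tnfrsf1a were lower and the others did not pass. Ltbr, the lymphotoxin β receptor, which stromal, epithelial and myeloid cells carry and lymphocytes lack, was at 13.9 ± 2.64 CPM in libraries labelled Batf-deficient and 68.5 ± 7.35 CPM in those labelled control (log2 fold change -2.29, edgeR adjusted p = 1.84e-07). Of 8 genes of alternative NF-κB signalling 7 were higher with TMM factors (median 0.91), beside 30.2% of all genes, and all 8 were lower against the panel (median -1.58), beside 87.5% of all genes. Nfkb2, the precursor of p52, was at 325 ± 25.8 and 166 ± 11.3 CPM, and its partner Relb at 158 ± 3.78 and 84.5 ± 14.6 CPM, in libraries labelled Batf-deficient and control.

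Of 7 genes that lymphotoxin induces in stroma and epithelium, 6 were tested. Cxcl13, Ccl21a, Madcam1 and Vcam1 were lower, and Ccl20 and Icam1 higher with TMM factors (median -2.05), whereas against the panel Icam1 was lower and Ccl20 did not pass. Cxcl13, the chemokine of B cell follicles, had 1 count in all in libraries labelled Batf-deficient and 105, 296 and 161 counts in those labelled control. Madcam1, the addressin of mucosal vessels, was at 1.13 ± 0.458 and 17.8 ± 3.44 CPM in libraries labelled Batf-deficient and control. Ccl21a has near-identical copies, so its value is uncertain. Of the RANK axis, Tnfsf11 and the adaptor gene Traf6 were higher with TMM factors, the RANK gene Tnfrsf11a was lower at 7.52 ± 2.12 and 22.1 ± 5.19 CPM in the same order, and all 3 were lower against the panel. The decoy receptor gene Tnfrsf11b had too few counts to be tested. Beside these genes, 8 of 8 stromal and 9 of 10 endothelial markers were lower in libraries labelled Batf-deficient, and their part was not tested.

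Of 12 ligands and partners of the surface genes 10 were tested, with 3 higher (Itgav, Slc3a2 and Lck) and 4 lower (Kitl, Plxna2, Nrp2 and H2-Ab1) with TMM factors, and 9 lower and none higher against the panel. Kitl, the ligand of Kit, was at 1.15 ± 0.843 CPM in libraries labelled Batf-deficient and 18.1 ± 2.20 CPM in those labelled control (log2 fold change -4.03, edgeR adjusted p = 3.43e-06). Lck, the kinase bound to CD4 and itself a panel gene, was at 345 ± 16.6 and 62.1 ± 9.67 CPM in the same order. Of 12 other LTi-like ILC3 genes 10 were higher with TMM factors (median 1.70), while against the panel Il23r and Id2 were higher and 9 lower (median -0.79). The CCL20 receptor gene Ccr6 was at 87.0 ± 5.15 and 51.1 ± 7.35 CPM in libraries labelled Batf-deficient and control (log2 fold change 0.77, edgeR adjusted p = 0.000250, and -1.72 against the panel). The homing receptor genes Cxcr5 and Ccr7 did not pass with TMM factors (log2 fold changes 0.02 and -0.11) and were lower against the panel (-2.45 and -2.59). B cells and dendritic cells also carry these receptors.

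**Figure D5:**
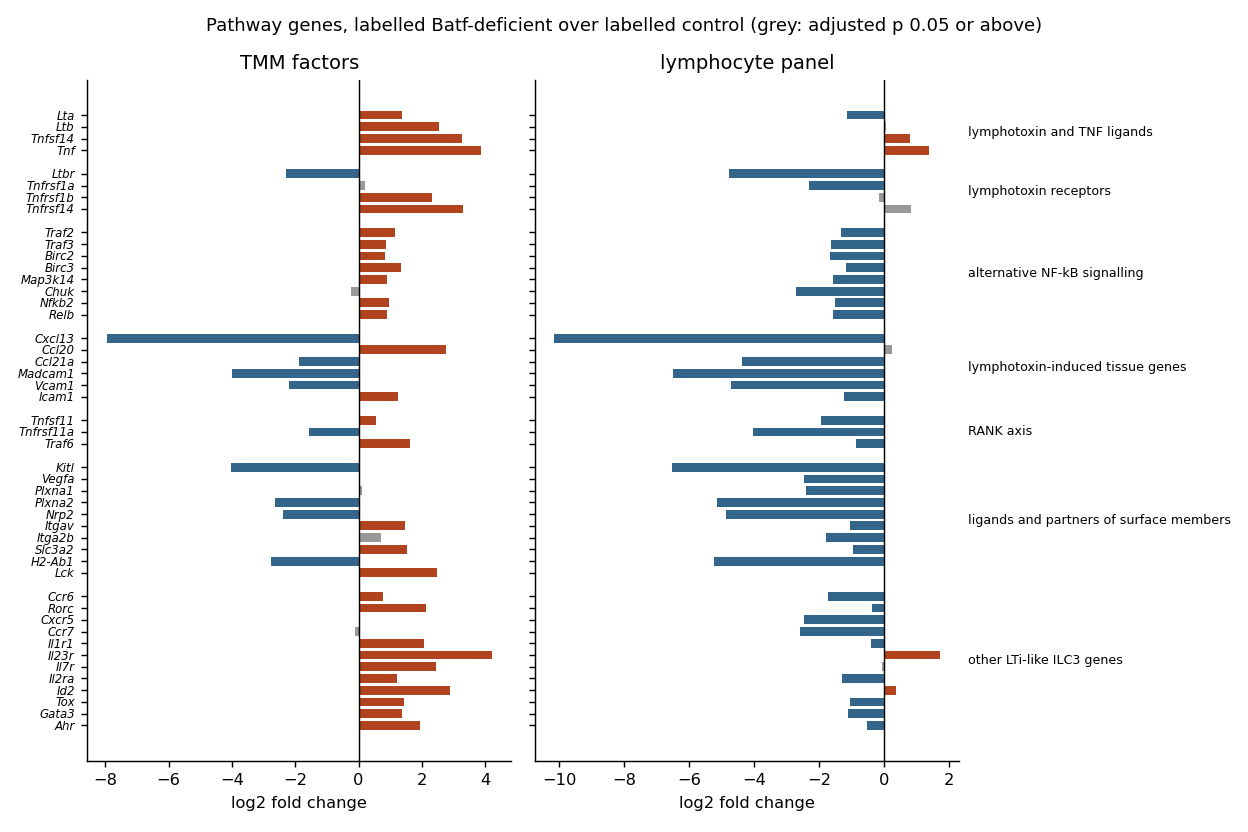
Log2 fold changes, labelled Batf-deficient over labelled control, of the tested genes of 7 pathway lists with TMM factors (left) and against the lymphocyte panel (right), with grey bars for adjusted p of 0.05 or above. Tnf, Tnfsf14, Il23r and Id2 are higher on both scales, and Ltbr, Cxcl13, Ccl21a, Madcam1, Vcam1, Tnfrsf11a, Kitl, Plxna2, Nrp2 and H2-Ab1 are lower on both.

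The genes whose profile over the 6 libraries was most like each lymphocyte gene were found among 8978 tested genes whose log2 CPM averaged 3 or more, by the root mean square difference of centred log2 CPM. Nearest to Ltb were Adgrg5, Arhgap26 and the panel gene Lat, an adaptor of antigen receptor signalling, with differences of 0.0430, 0.0569 and 0.0678. Nearest to Cd4 were Csnk2b, Dpf2 and Dynlt1c (0.0645, 0.0705 and 0.0767). Nearest to Lta were Calcoco1, Shprh and Armcx2 (0.107, 0.110 and 0.114). These are descriptions over 6 libraries. The difference between groups makes up most of the Ltb and Lta profiles, whereas the groups overlap for Cd4.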

How the data were processed

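The authors deposited raw counts per gene symbol in a single table, whole numbers for 6 Smart-seq2 libraries made from 2 ng of RNA each per the labels' protocols. Per the submitters' processing notes, reads were placed on mm10. For the aligner, counting tool, annotation and strand setting, nothing is given in the sources used here. Reads carry no molecular identifiers, so floors cover counting error only, and whether samples came from separate animals is stated only as biological replicates, so p-values measure the spread between these samples. Samples were grouped by title and genotype labels.

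The fit used edgeR 4.0.16 in R 4.3.3, with filterByExpr (minimum count 10), TMM factors (0.858 to 0.915 for libraries labelled Batf-deficient, 1.11 to 1.17 for control), glmQLFit with robust estimation and glmQLFTest, two-sided, with group as the only term and Benjamini-Hochberg adjustment over 15261 genes at 0.05. SEs are the log2 fold change divided by the square root of F. The model was tested on simulated data in which few genes changed, equally in both directions. That test does not bear on the choice of scaling. Panel scaling replaced library sizes by the summed counts of 21 genes. DESeq2 1.42.0, other scalings, filters, a replicate block, left-out libraries and an average of Batf-deficient replicates 1 and 2 were alternatives. Those replicates were the most alike (mean chi-square 2.36 per gene, other pairs 14.8 to 24.2) and were kept apart as the series design counts separate biological replicates. Repeated preparations of 1 sample could differ as much, so whether they are separate samples, and with it n = 3 and the p-values, is uncertain.

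The genes, lists, panel and tests were chosen with earlier results of these data known, and the motifs after the values were seen. The naming rule allowed the 10 members, Batf, members of the 7 lists, the 2 most abundant genes of each marker list and the 3 nearest profiles of Cd4, Lta and Ltb. Not all that it allowed are named. Other markers named beside a result, and the ratios within a library, were picked after their values were seen. Coordinates and exon lengths are from GENCODE M21, and 24623 of 25075 symbols (98.2%) were in its table of gene names. A listed marker gene is not reported here by name.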

Additional observations from a re-analysis of the deposited data

How the results depend on the processing

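The scaling changed the calls most. With library totals 3052 genes were higher, 4 of the 10 members remained called higher (Kit, Ltb, Itgb3 and Lta), and Nrp1 was at -0.082. Against the lymphocyte panel 278 genes were higher and 13358 lower, 1 member was higher and 8 lower, and of the pathway genes 4 were higher and 37 lower, against 30 and 10 with TMM factors. Log2 fold changes that turned negative against the panel were -1.20 for Batf, -2.07 for Cd4, -2.19 for Nrp1, -1.83 for Cntn1, -1.94 for Tnfsf11, -0.83 for Itgb3 and -1.12 for Lta. Which scale follows the cells more closely was not tested. Nrp1 also lost its call with DESeq2 size factors, the DESeq2 test, no filter on low counts and averaged replicates. Leaving out single libraries gave 5 to 8 members higher and 2 lower with TMM factors, and 1 higher and 8 lower against the panel each time, with Ltb between -0.0134 and 0.19. Under panel scaling the other alternatives, added after the data were seen, gave the same counts of members. A replicate block gave 8 members higher and 2 lower, Cd4 passing at 0.42 (edgeR adjusted p = 0.0239). The shared numbers were not used as pairs, since deviations of same-numbered libraries correlated at only 0.014, 0.047 and 0.061. Even so, each control library correlated best with its same-numbered library, and differently numbered pairs lay between -0.064 and 0.027. Batf-deficient replicate 1 correlated best with control replicate 2 (0.027). Whether the numbers mark pairs was therefore not settled.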

Other observations

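A few marker genes went the other way from most of their own list with TMM factors, and the 4 given here were picked after their values were seen. Blk, a SRC-family kinase on the B cell list, was at 136 CPM in the libraries labelled Batf-deficient and 16.4 CPM in those labelled control (log2 fold change 3.04, edgeR adjusted p = 2.10e-09, and 0.56 against the panel). Zbtb46, a transcription factor of classical dendritic cells, was at 44.8 and 28.0 CPM in the same order (log2 fold change 0.68, edgeR adjusted p = 0.00161, and -1.80 against the panel). The chemokine receptor gene Xcr1 was at 22.6 and 9.57 CPM (log2 fold change 1.24, edgeR adjusted p = 0.000977, and -1.25 against the panel). Cd8a, on the αβ T cell list, was at 0.227 CPM in the libraries labelled Batf-deficient and 4.63 CPM in those labelled control (log2 fold change -4.15, edgeR adjusted p = 8.76e-05). Of these 4 genes, Blk was the 1 that stayed higher against the panel.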
